A study of Mus musculus with 6 samples.

Results

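The Hippo pathway is a kinase cascade that limits growth by holding the coactivators YAP and TAZ in the cytoplasm. When the kinases LATS1 and LATS2 are inactive, YAP and TAZ enter the nucleus and pair with the TEAD transcription factors, which carry the DNA-binding domain. In fibroblasts this pathway responds to cell density and matrix stiffness, and CCN1, CCN2 and ANKRD1 are its commonly used target genes. Binding of Onecut3, a transcription factor with a CUT domain and a homeodomain, was examined here around 10 genes of this pathway chosen by name: Tead1, Tead2, Tead3 and Tead4, the coactivator genes Yap1 and Wwtr1 (which encodes TAZ), the targets Ccn1 (Cyr61), Ccn2 (Ctgf) and Ankrd1, and Lats2, which is both a kinase of the cascade and one of its targets. These are 10 of 21887 protein-coding genes in the RefSeq annotation of GRCm38. They were chosen with earlier results of these data known. Every peak inside a gene or within 100 kb of its RefSeq span was used.

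The study examined ChIP-Seq of mouse embryonic fibroblasts (MEFs) to find genes bound by Onecut3. All groups were p53-KO MEFs of the C57BL/6 strain, so the absence of p53 is shared by every library. In Onecut3-OE cells, doxycycline at 100 ng/mL induced Onecut3 from a retroviral construct, and an anti-FLAG antibody recovered its DNA in 3 replicates. The other libraries were 1 IgG and 1 input library of Onecut3-OE cells and 1 FLAG library of control cells that received no doxycycline. Only the peak lists of the 3 Onecut3-OE FLAG replicates were analysed here. Signal that the FLAG antibody gives without Onecut3 was therefore not subtracted. Peak lists hold no expression, so neither the fibroblast identity nor the p53-KO genotype could be checked. Whether the 3 replicates were grown as separate cultures is not stated in the sources used here.

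FLAG replicates 1, 2 and 3 had 31600, 12856 and 24822 peaks, of which 41, 16 and 39 lay at the Hippo genes. Each peak carries the fold that MACS2 gave, which is the ChIP pileup at its summit over the expected background with 1 added to each, and a q value. A fold was read only within its own list. The lists do not give sequencing depth, but fold and p of a peak together returned the number of ChIP fragments stacked at its summit and the expected background for 100.0% of peaks. The median peak rested on 10, 14 and 10 fragments in replicates 1, 2 and 3. In replicate 2 the fold uses the pileup scaled by 0.964, whereas fragments are given unscaled throughout. The lowest background possible, a genome-wide floor, was 2.30, 2.47 and 2.14 fragments. Of the Hippo peaks, 15, 14 and 18 (36.6%, 87.5% and 46.2%) had a q of at most 0.05 in replicates 1, 2 and 3. The shares over all peaks were 33.6%, 71.0% and 47.7%, so most peaks of replicates 1 and 3 did not pass this limit. A missing peak in a list means only that none was called there. Peaks that overlapped by 1 bp or more were joined to form a region, and regions to which all 3 replicates contributed are called shared.

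Onecut3 FLAG peaks formed 71 regions at the 10 Hippo genes, of which 7 were shared, 11 had a peak in 2 replicates and 53 in 1 replicate. The shared regions lay at Tead1, Tead3, Tead4, Ankrd1 and Lats2, with 2 each at Tead4 and Ankrd1 and 1 at each of the other three. Tead2, Yap1, Wwtr1, Ccn1 and Ccn2 had none. Thus 5 of 10 Hippo genes had a shared region within 100 kb, against 40.6% of all protein-coding genes, a share close to that background. The same 5 genes had one within 50 kb, against 27.8% of all genes, and within 10 kb, against 14.3%. These shares were not matched for gene length, and the Hippo genes were longer, with a median of 37.8 kb against 17.2 kb. The 7 shared regions were 9.86% of the Hippo regions, and 10.1% of all 50844 regions were shared. Of the single-replicate regions, 26 were in replicate 1, 4 in replicate 2 and 23 in replicate 3. All 10 Hippo genes had a region of at least 1 replicate, against 91.0% of all protein-coding genes, and 2 had 2 or more shared regions, against 14.9%. A region in at least 2 replicates was found at 9 Hippo genes, Yap1 being the exception, against 65.4% of all protein-coding genes. Without replicate 2, the shortest list, 9 Hippo genes had a region in both lists left, against 56.6% of all genes. Without replicate 1 it was 5, against 47.3%, and without replicate 3 it was 6, against 50.0%.

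**Figure D1:**
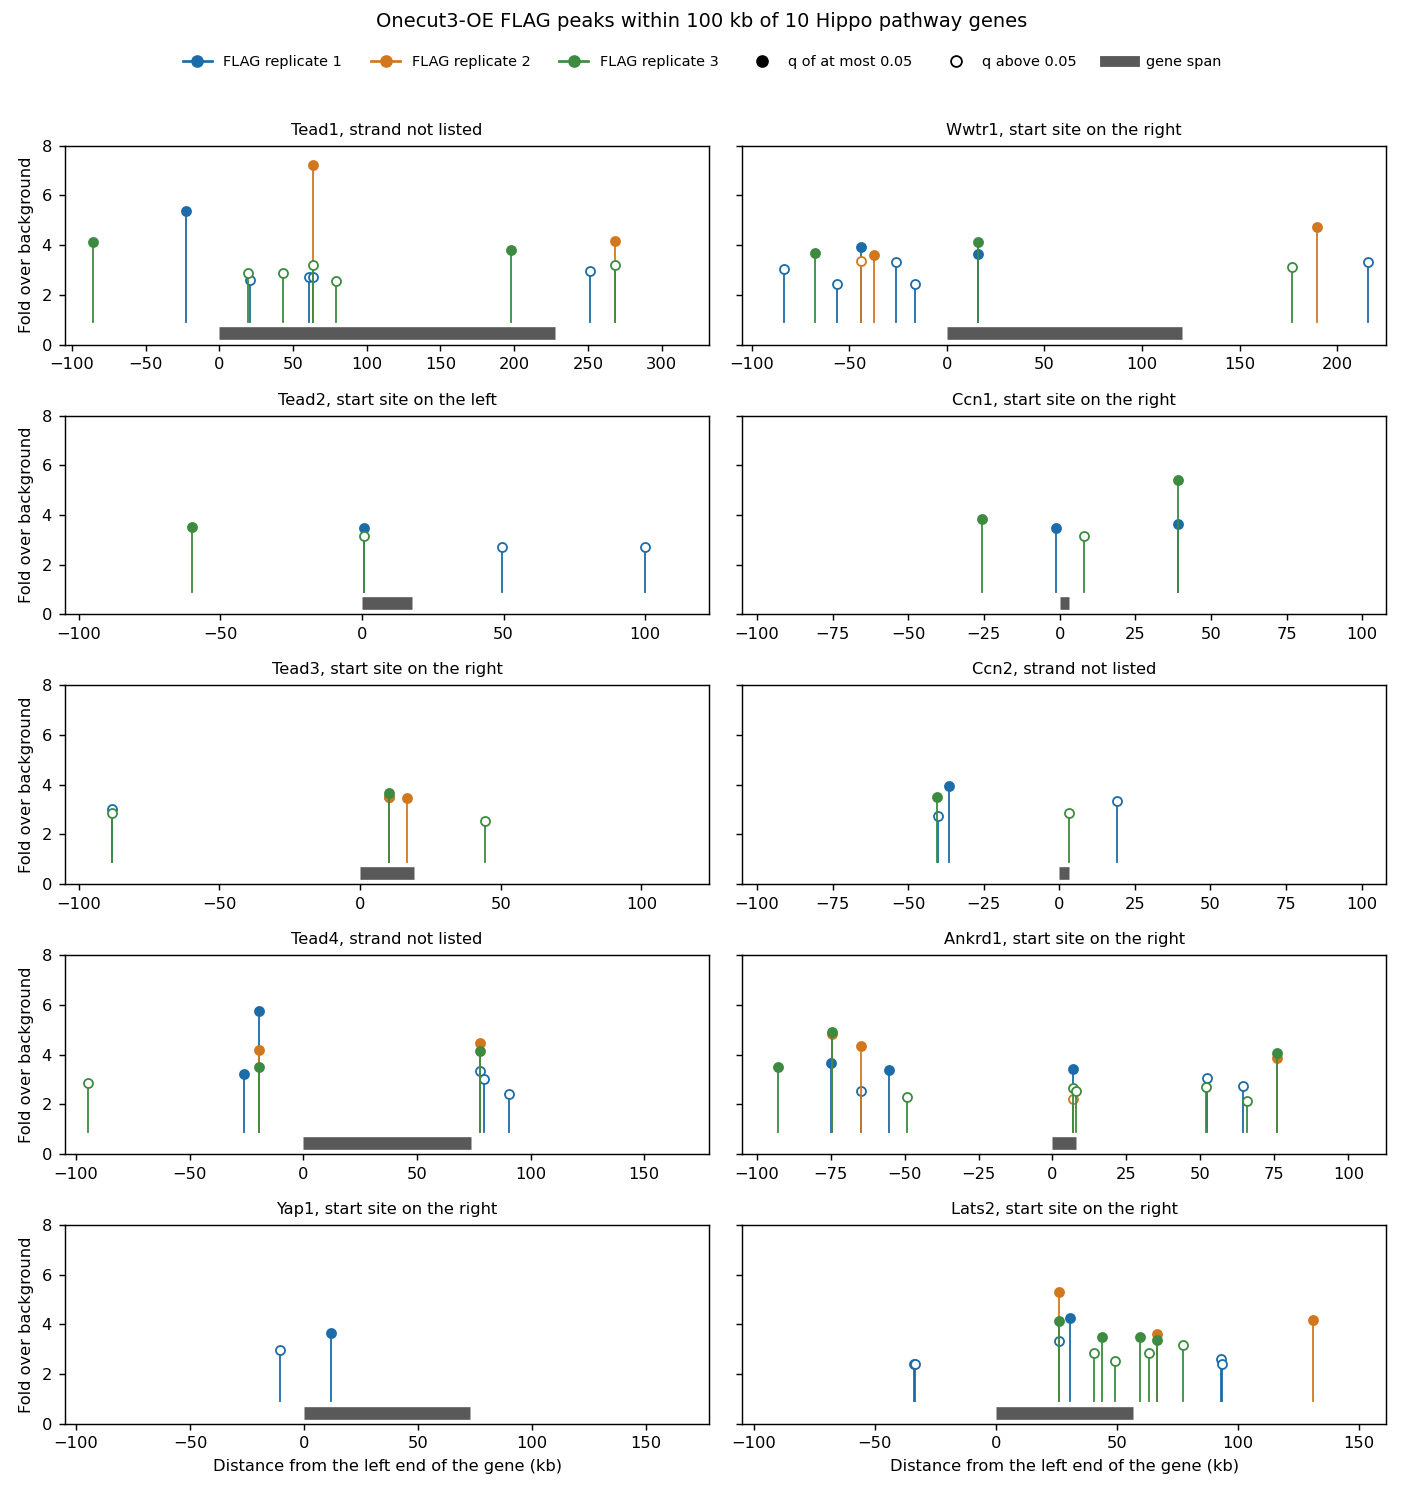
Peaks of the 3 Onecut3-OE FLAG replicates around each Hippo gene, with distance in kb from the gene end with the lower coordinate on the x axis and the fold over background on the y axis. The lines mark summits, filled circles have q of at most 0.05, open circles a higher q, and the grey bar is the gene; Tead4 has lines of all 3 colours on both sides of the gene and none inside it, and Yap1 has lines of replicate 1 only.

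**Figure D2:**
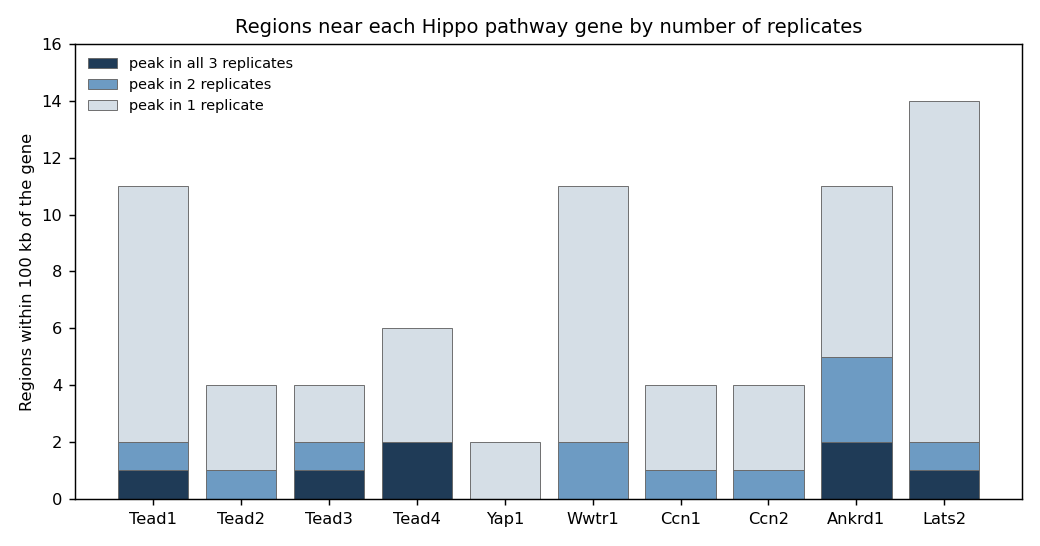
Number of regions within 100 kb of each Hippo gene on the y axis, stacked by the number of replicates with a peak there. The darkest part marks shared regions, of which Tead4 and Ankrd1 have 2 each, and Lats2 has the most regions in all, 14, of which 12 were in 1 replicate.

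Tead4 was the member with the most recurrent peaks for its number of regions: 2 of 6 were shared, and neither lay inside the gene. TEAD4 is a TEAD factor best known for its role in the trophectoderm of the mouse embryo. Tead4 lies on chromosome 6 from 128227143 to 128300813. The first shared region, from 128207372 to 128207743, lay 19.6 kb beyond the lower-coordinate end, with folds of 5.75, 4.18 and 3.50 in replicates 1, 2 and 3. These rested on 18, 14 and 10 fragments (q = 2.61e-07, 0.00226 and 0.0430). It was the highest fold of any shared Hippo region in replicate 1 and was called in every list at a q below 0.05. The second, from 128304936 to 128305299, lay 4.30 kb beyond the other end, with folds of 3.33, 4.46 and 4.14 on 10, 15 and 12 fragments. Its q was 0.0673, 5.02e-04 and 0.00301 in replicates 1, 2 and 3. The summits of the replicates fell within 41 bp of each other in the first region and 21 bp in the second, against a median of 67 bp over all 5114 shared regions. No other protein-coding gene was nearer to either region. The background stood at its floor at both regions in every list. The other 4 regions at Tead4 each had a peak in 1 replicate, with folds of 2.42 to 3.24.

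Tead1 had 11 regions, the only shared one being strong in replicate 2 alone. TEAD1 is the widely expressed TEAD factor, first described as a binder of the SV40 enhancer. Tead1 lies on chromosome 7 from 112679356 to 112906784 and is the longest of the 10 genes, at 227 kb. The shared region, from 112743024 to 112743294, lay inside the gene, with folds of 2.73, 7.24 and 3.18 on 8, 25 and 9 fragments. In replicate 2 it was number 204 of 12856 peaks by fold (q = 5.36e-12), whereas its q was 0.521 in replicate 1 and 0.142 in replicate 3. The summits nevertheless lay within 17 bp. Replicate 2 thus carried this region, and with only peaks of q at most 0.05 it was no longer shared. A region from 112947409 to 112947699, 40.8 kb beyond the gene and nearer to Rassf10, had folds of 4.18 in replicate 2 and 3.18 in replicate 3. In replicate 1 alone, a peak from 112656412 to 112656657 had a fold of 5.36 (q = 5.41e-08) on 22 fragments. Its background was 1.43 times the floor. This was the highest fold among the Hippo peaks found in replicate 1 alone. The other 8 regions were in 1 replicate each.

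Tead3 had a shared region in its gene body, and Tead2 a region close to its start site in 2 replicates. Tead3 lies on chromosome 17 from 28331671 to 28350805. Its shared region, from 28341816 to 28342181, lay 8.35 kb downstream of the nearest RefSeq start site. The folds were 3.52, 3.51 and 3.66 on 11, 12 and 11 fragments in replicates 1, 2 and 3. By fold, the region was number 9354 of 31600, 8159 of 12856 and 7704 of 24822 peaks in these lists. It was called at q = 0.0222, 0.0414 and 0.0162, so it passed 0.05 in every list, but its summits were spread over 189 bp. It was not counted as shared where summits had to lie within 100 bp. Another region at Tead3, from 28243464 to 28243768 inside the neighbouring Ppard, had folds of 3.03 in replicate 1 and 2.87 in replicate 3. Tead2, the TEAD gene active in the earliest mouse embryos, lies on chromosome 7 from 45215792 to 45233468. Its region from 45216420 to 45216751 was centred 0.793 kb downstream of the start site, with a fold of 3.49 in replicate 1 (q = 0.0201) and of 3.13 in replicate 3 (q = 0.123). The summits coincided in both lists, and replicate 2 had no peak there. The background at this region was 1.18 and 1.17 times the floor. The remaining 3 regions of Tead2 lay inside Pih1d1, Slc6a16 and Trpm4.

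The coactivator genes Yap1 and Wwtr1 had no shared region. Yap1, on chromosome 9 from 7931999 to 8004638, had the fewest regions of the 10 genes. Both were in replicate 1 only, namely a gene-body peak spanning 7943399 to 7943793 with fold 3.63 (q = 0.0201) and a peak past the gene's end spanning 7921186 to 7921905 with fold 2.96 (q = 0.197). Wwtr1, on chromosome 3 from 57455644 to 57575910, had 11 regions, of which 1 lay inside the gene. That region, from 57471286 to 57471759 and 104 kb downstream of the start site, had a fold of 3.63 in replicate 1 (q = 0.0201) and of 4.14 in replicate 3 (q = 0.00301). A region from 57411680 to 57412058, nearer to Tm4sf4, had a fold of 3.94 in replicate 1 (q = 0.00517) and of 3.35 in replicate 2 (q = 0.122). The rest, 9 regions, were in 1 replicate each and lay in or nearest to Tm4sf1, Tm4sf4, Commd2 or Ankub1.

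At the target genes, Ccn1 and Ccn2 had no shared region and Ankrd1 had 2, of which 1 was inside the gene. CCN1 and CCN2 are secreted matrix proteins. Ccn1 lies on chromosome 3 from 145646971 to 145649985. A region from 145685962 to 145686333, 36.2 kb upstream of its start site, had a fold of 3.63 in replicate 1 (q = 0.0201) and of 5.41 in replicate 3 (q = 4.18e-06). Closer to the gene, replicate 1 alone had a peak 1.41 kb beyond its end at a fold of 3.48, and replicate 3 alone had a peak 4.98 kb upstream of it at 3.13. Ccn2 lies on chromosome 10 from 24595442 to 24598683. A region from 24554971 to 24555343, 40.3 kb from the gene, had a fold of 2.73 in replicate 1 (q = 0.521) and of 3.50 in replicate 3 (q = 0.0430), with summits 200.0 bp apart. A peak of replicate 3 alone lay 0.124 kb beyond the gene, at a fold of 2.87 (q = 0.404). No peak at Ccn1 or Ccn2 came from replicate 2.

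Ankrd1 encodes a cardiac ankyrin repeat protein that fibroblasts also induce on stretching. It lies on chromosome 19 from 36111965 to 36119844, and 11 regions lay within 100 kb of it. The shared region inside it, from 36118730 to 36119146, was centred 0.906 kb downstream of the start site, with folds of 3.44, 2.21 and 2.66. The pileup was 15 fragments in each replicate, while the background was 3.65, 6.00 and 5.02 fragments. The q values were 0.00597, 0.966 and 0.129 in the 3 replicates, and in replicate 2 the peak was number 12679 of 12856 by fold. The background here was 1.59, 2.43 and 2.34 times the floor, more than at any other shared Hippo region. The second shared region, from 36037101 to 36037604, lay 74.6 kb from Ankrd1 and inside Htr7, a serotonin receptor gene. Its folds were 3.67, 4.83 and 4.89 on 16, 24 and 17 fragments (q = 0.00176, 2.89e-07 and 1.31e-05), over a background of 1.58, 1.62 and 1.25 times the floor. With the q limit, the region in Htr7 was still shared and the region in Ankrd1 was not. The summits were spread over 203 bp in the region in Htr7 and 151 bp in the region in Ankrd1, so with summits within 100 bp neither was shared. A region upstream of Ankrd1, from 36187535 to 36187865, had a fold of 3.86 in replicate 2 (q = 1.39e-04) and of 4.08 in replicate 3 (q = 9.70e-05). Closer upstream, the region spanning 36163860 to 36164165 had a fold of 3.06 in replicate 1 (q = 0.0888) and of 2.69 in replicate 3 (q = 0.404). Another region inside Htr7, spanning 36047244 to 36047659, had a fold of 2.53 in replicate 1 (q = 0.261) and of 4.35 in replicate 2 (q = 2.01e-04), with the summits at the same base.

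The promoter of Ankrd1 is shown because it was the only listed promoter of a Hippo gene that a peak overlapped. That peak, in replicate 3 alone from 36119756 to 36120194, had a fold of 2.55 on 8 fragments (q = 0.746), and it covered the whole promoter. The sequence is from RefSeq on GRCm38.p6, chr19:36119795-36120094, minus strand, 250 bases before to 50 bases after the start site, written from 5′ to 3′ with the TEAD word GGAATG in capitals.
Ankrd1 promoter: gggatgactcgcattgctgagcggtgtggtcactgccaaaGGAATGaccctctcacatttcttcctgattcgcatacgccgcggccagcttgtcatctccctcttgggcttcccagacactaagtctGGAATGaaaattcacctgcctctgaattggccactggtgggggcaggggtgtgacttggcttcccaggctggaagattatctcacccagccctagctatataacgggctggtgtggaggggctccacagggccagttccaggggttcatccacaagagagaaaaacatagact
The 2 TEAD words began 210 and 123 bases before the start site. GGAATG or its reverse CATTCC was found in a listed promoter of 6 of the 7 Hippo genes that the promoter table holds, Tead2 being the exception, against 15.5% of 17492 protein-coding genes. The ONECUT words ATCGAT (its own reverse) and ATTGAT (reverse ATCAAT) were in none of the 11 listed promoters of these 7 genes. Over all 21263 listed promoters the shares were 0.856% and 6.54%. With shares this low, finding none in 11 promoters says little. Both strands were searched, and matches of ATCGAT and ATTGAT, which can share letters where they adjoin, were counted separately. Such a match is a description of letters and not a site. A peak of any replicate overlapped a listed promoter at 1 of these 7 Hippo genes, and at 6.17% of all such genes. Tead1, Tead4 and Ccn2 have no entry.

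Lats2 had the most regions of the 10 genes, 14, but only 1 was shared. LATS2 phosphorylates YAP and TAZ, and its gene is itself switched on by them in a feedback loop. Lats2 lies on chromosome 14 from 57689662 to 57746212. The shared region, from 57715518 to 57715924, was inside the gene, 18.7 kb downstream of the nearest start site, with folds of 3.33, 5.29 and 4.14 on 10, 18 and 12 fragments. Its q was 0.0673, 3.62e-06 and 0.00301 in replicates 1, 2 and 3, and the summits lay within 34 bp at a background on the floor. A region from 57756094 to 57756383, 10.1 kb upstream of the gene's start site and nearer to Gm52140, had a fold of 3.63 in replicate 2 (q = 0.0120) and of 3.38 in replicate 3 (q = 0.0427). A gene-body peak spanning 57720271 to 57720523, seen in replicate 1 alone, reached a fold of 4.24 (q = 0.00120). Of the 12 single-replicate regions, 5 came from replicate 1, 1 from replicate 2 and 6 from replicate 3.

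**Figure D3:**
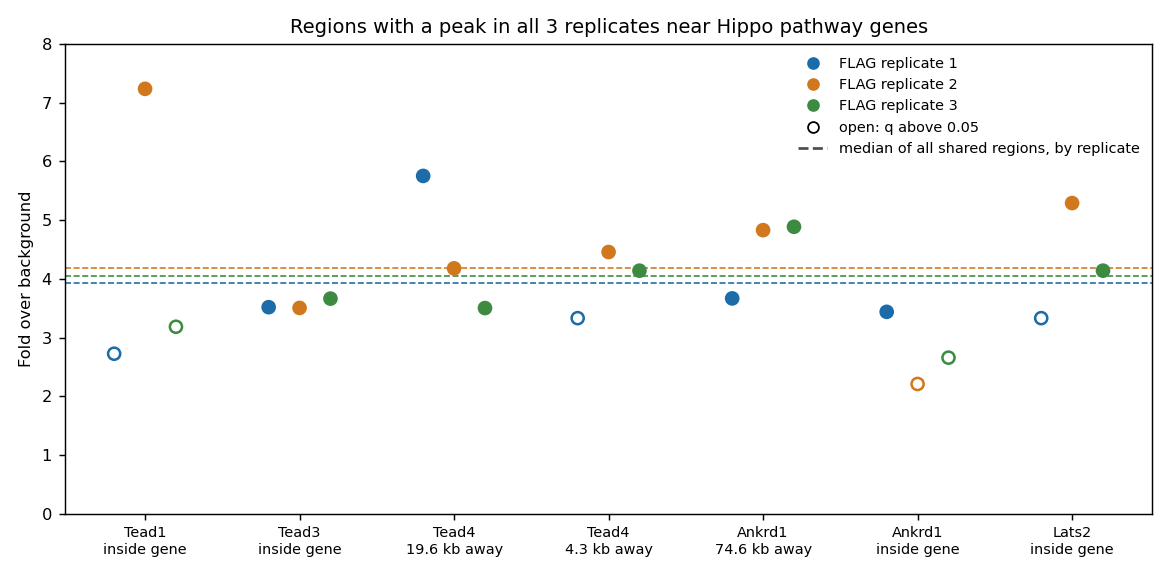
Fold over background on the y axis for the 7 shared regions of the Hippo genes, 1 point per FLAG replicate, open where q is above 0.05. Dashed lines give the median of all 5114 shared regions in each replicate. The region in Tead1 reaches 7.24 in replicate 2 only, and the region in Tead3 lies below the dashed line of each replicate.

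The 7 shared Hippo regions had folds on both sides of the middle of all shared regions. Their folds had a median of 3.44, 4.46 and 3.66 in replicates 1, 2 and 3, against 3.94, 4.18 and 4.05 over all 5114 shared regions. Of the 7 regions, 6, 2 and 4 lay below the median of all shared regions in replicates 1, 2 and 3, and none had a fold of at least 5 in every replicate. The pileups ranged from 8 to 18 fragments in replicate 1, 12 to 25 in replicate 2 and 9 to 17 in replicate 3, against medians of 14, 16 and 13 over all shared regions. Every q was at most 0.05 at 3 of the 7 regions: the one in Tead3, the one 19.6 kb from Tead4 and the one in Htr7. The shares of all 5114 shared regions that meet these q and fold limits were not computed. Counted by gene, the q limit left 3 Hippo genes with a shared region, against 29.6% of all protein-coding genes. The fold limit left 0, against 7.02%. Single-replicate peaks at the Hippo genes had median folds of 2.96, 3.90 and 2.87, against 3.02, 3.36 and 3.13 for single-replicate peaks of the whole series.

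**Figure D4:**
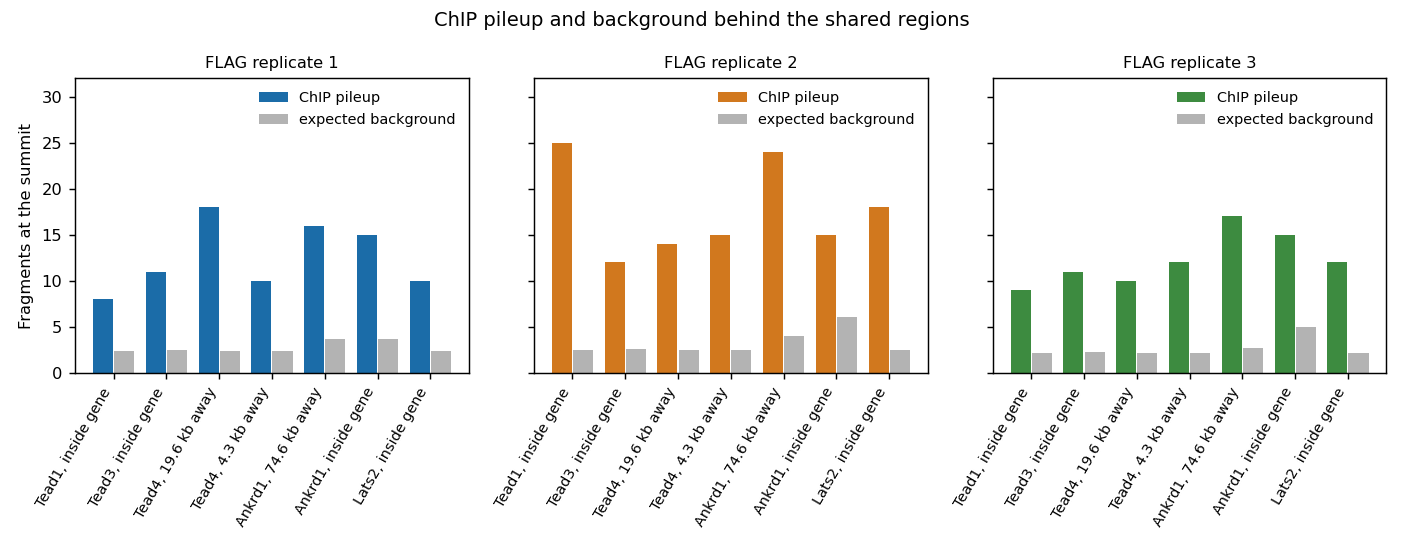
ChIP pileup (coloured) and expected background (grey) in fragments at the summit, for the 7 shared regions of the Hippo genes in each FLAG replicate. In replicate 2 the pileup is unscaled, whereas the background is that of the pileup scaled by 0.964. The pileups run from 8 to 25 fragments, and the background is highest at the region inside Ankrd1.

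The position of the shared regions differed between members. Inside the gene lay 4 of the 7, in Tead1, Tead3, Ankrd1 and Lats2, so 4 of 10 Hippo genes had a shared region in the gene body, against 9.53% of all protein-coding genes. Long genes hold more regions, and the Hippo genes had a median length of 37.8 kb, against 17.2 kb for all genes. Among genes under 20 kb, 2 of 5 Hippo genes (Tead3 and Ankrd1) had one, against 3.11% of all genes of that length. Between 20 and 100 kb it was 1 of 3 (Lats2), against 11.0%, and at 100 kb or more 1 of 2 (Tead1), against 36.2%. With so few genes and no test, these shares are counts only. At q of at most 0.05 the region in Tead3 was the only one of the 4 that remained shared. The member was the nearest protein-coding gene, or lay around the region, for 36 of the 71 regions. For Wwtr1 and Tead2 it was so for only 1 region each, whereas all regions of Yap1 and Ccn2 had the member as nearest gene. The same share was not computed over all protein-coding genes, so these counts describe location only.

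The number of regions around a member differed, and so did the level of its chromosome. The 10 windows covered 2.60 Mb and held 12.3 ± 5.34 peaks per Mb (SD, n = 3 replicates), against 9.58 ± 3.81 over the windows of all protein-coding genes (SD, n = 3). Without Ankrd1 it was 10.9 ± 5.13 (SD, n = 3). The SD between replicates includes the unequal length of the lists, so it does not measure the spread of the difference between Hippo and all genes. In each replicate the Hippo windows were denser, at 15.8, 6.15 and 15.0 peaks per Mb against 13.0, 5.49 and 10.2 for all genes. Without Ankrd1 the Hippo windows had 14.6, 5.01 and 13.0, below all genes in replicate 2. Counting regions of any replicate, Lats2 and Ankrd1 had 54.6 and 52.9 per Mb, at percentiles 96.6 and 95.9 of protein-coding genes. Yap1 had 7.34 at percentile 19.0. The median was 19.4 over all protein-coding genes. For Ankrd1 the median of its own chromosome 19 was 45.3, so its value was near that of its neighbours, while the median for Lats2 on chromosome 14 was 19.1. Wwtr1 had 34.3 regions per Mb, against a median of 19.6 on chromosome 3. Tead1 had 25.7 and Tead2 18.4 regions per Mb, against a median of 7.23 on chromosome 7. By shared regions per Mb the order differed. The percentiles were then 93.3 for Ankrd1, 87.8 for Tead4, 73.5 for Tead3, 65.7 for Lats2 and 60.4 for Tead1. The members without a shared region, Wwtr1 among them, were tied at percentile 29.7. On chromosome 19, 71.9% of protein-coding genes had a shared region within 100 kb, against 21.2% on chromosome 7. Background at least 1% above the floor was found at 72.2%, 84.1% and 77.3% of the chromosome 19 peaks in replicates 1, 2 and 3, and at most at 37.2%, 51.3% and 41.7% on the chromosomes of the other members. Its part in the count at Ankrd1 was not tested.

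**Figure D5:**
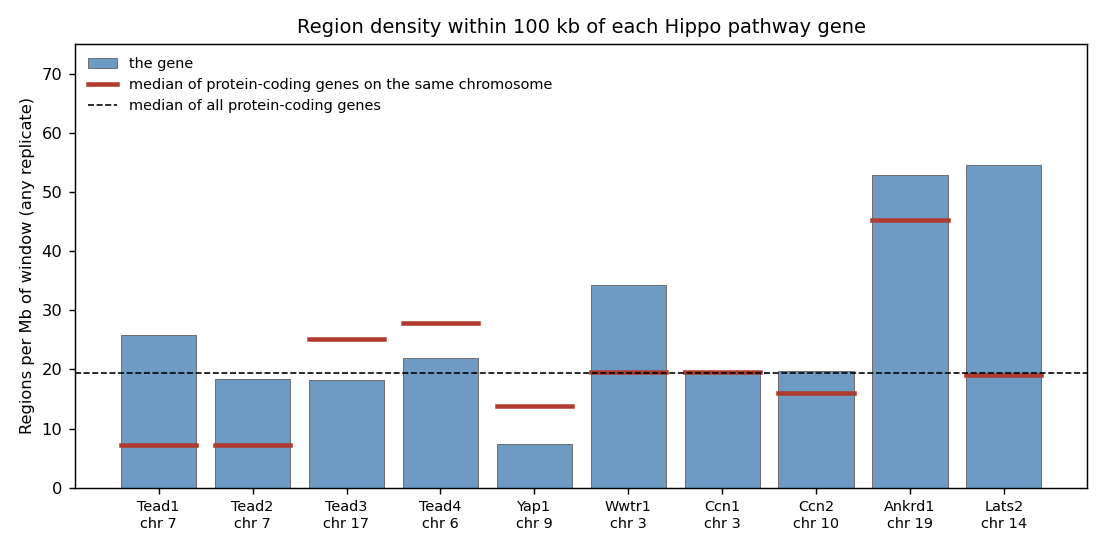
Regions of any replicate per Mb of window around each Hippo gene on the y axis (bars), with the median of protein-coding genes on the same chromosome (red lines) and of all protein-coding genes (dashed line, 19.4). Tead1, Tead2, Wwtr1 and Lats2 stand well above their chromosome's line, Ankrd1 less so above its high line of 45.3, Ccn1 and Ccn2 near or a little above theirs, and Tead3, Tead4 and Yap1 below theirs.

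A binding score that gives close regions more weight gave Ankrd1 and Tead4 the highest values among the members, with an order that depended on where Tead4 is taken to start. For each protein-coding gene, following the BETA software, it adds up a weight for every shared region within 100 kb, and the weight falls with distance from the start site. Where the RefSeq promoter table listed no start site, as for Tead4 and Tead1, the nearer gene end was used for each region. Tead4 had a score of 0.788 (percentile 98.2), Ankrd1 0.607 (96.6), Tead3 0.434 (91.1), Lats2 0.287 (86.6) and Tead1 0.0473 (71.7). The value of Tead4 thus adds 1 region measured from each end. In an alternative chosen after the data were seen, which used 1 end only for genes without a listed start site, Tead4 scored 0.304 (percentile 88.2) from the lower end, below Ankrd1 and Tead3, and 0.525 (94.1) from the higher end, below Ankrd1. Tead1 kept 0.0473 from its lower end and scored 0 from its higher end. The other 5 Hippo genes scored 0, as did most protein-coding genes, and the median of the 10 was 0.0236 against 0 over all genes. The percentile of Ankrd1 was 76.4 with only peaks of q at most 0.05, since the region in the gene body then dropped out, and 34.6 with summits within 100 bp. With only peaks of q at most 0.05, Tead4 was at 91.1 and Tead3 at 94.4, while Tead1 and Lats2 scored 0. With summits within 100 bp, Tead4 was at 98.9, Lats2 at 89.7, Tead1 at 77.2 and Tead3 at 34.6.

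Among other genes of the pathway, picked by the score that favours close regions, Nf2, Taok3 and Stk4 had a shared region near the start site. Among 24 upstream components of the cascade, 13 (54.2%) had a shared region within 100 kb, against 40.6% of all protein-coding genes, and 10 had one inside the gene, against 9.53%. The list was neither tested nor matched for gene length, and it was chosen with earlier results of these data known. The highest scores were those of Nf2, Stk4, Map4k4 and Taok3. Nf2 encodes merlin, which activates the cascade at the membrane, and its shared region spanning 4833280 to 4833669 of chromosome 11, 0.339 kb from its start site, had folds of 6.44, 5.93 and 7.12 in replicates 1, 2 and 3. Taok3, a kinase of the TAO family that acts above the cascade, had a region spanning 117119805 to 117120161 of chromosome 5, 0.146 kb from its start site, with folds of 7.25, 7.71 and 6.27. In each replicate the fold at Taok3 was higher than at any shared region of the 10 members. Stk4, which encodes the kinase MST1, had 4 shared regions, the strongest from 164139721 to 164140073 on chromosome 2 at 5.75, 5.57 and 6.37. The closest lay 1.31 kb from its start site, with folds of 2.42, 4.18 and 3.18. Map4k4, a kinase that can phosphorylate LATS1 and LATS2, had 2 on chromosome 1, with folds of 3.63 to 6.40.

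Among 22 TEAD cofactors and targets of YAP and TAZ, 13 (59.1%) had a shared region within 100 kb, against 40.6% of all protein-coding genes. Inside the gene, 6 had one, against 9.53%. This list too was neither tested nor matched for gene length, and was chosen with earlier results of these data known. Of all protein-coding genes of 100 kb or more, 36.2% had one inside. Asap1, Crim1, Nuak2 and Tgfb2 had the highest scores. Map4k4, Asap1 and Nuak2 have no listed start site, so their scores were also measured from the nearer gene end. Asap1, which encodes a GTPase-activating protein for ARF proteins, had 3 shared regions, and the one spanning 64093788 to 64094181 of chromosome 15 reached 8.48, 5.68 and 5.33. Crim1, a transmembrane regulator of BMP signals, had 4 on chromosome 17, the first from 78218518 to 78218866 at 4.96, 7.35 and 6.44. Nuak2, a kinase that feeds back on YAP, had 1 in its gene body, spanning 132326897 to 132327199 of chromosome 1, at 4.10, 9.18 and 5.70. Tgfb2, the ligand TGF-β2, had 1 outside the gene, spanning 186712626 to 186713113 of chromosome 1 and 6.88 kb from its start site, at 3.94, 5.29 and 4.14. The median score was 0.0227 in the upstream list and 0.0302 in the cofactor and target list, against 0 over all protein-coding genes.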

How the data were processed

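ChIP-Seq libraries were grouped by their GEO labels. Tools named in the submitters' processing notes are Bowtie2 2.2.6 and deepTools 3.3.2, with MACS2 2.1.0 as peak caller and GRCm38 as build; peak names point to calling per sample against the input. How reads were filtered is not given. The deposited peak lists hold the start, end and summit, a fold (a ratio of pileup to background), p and q as -log10 values, and a score that follows the -log10 p-value. The lowest -log10 p-value was 2.00, 2.01 and 2.02 in replicates 1, 2 and 3. Folds depend on depth and local background and were compared within a list only. The pileup was solved from the authors' fold and p within 0.001 in -log10 p. For replicate 2 it was taken as whole fragments scaled by 0.964, and the unscaled number is printed.

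Gene spans came from RefSeq on GRCm38.p6, and all 10 symbols were found. Start sites came from its promoter table, which lists 17492 of 21887 protein-coding genes. The score sums exp(-(0.5 + 4 x distance / 100 kb)) over shared regions, from region midpoints. Distances are also from midpoints. By rule, named genes were the 10 members, the gene nearest to each shared region and up to 4 of each pathway list by score, and named regions were those in at least 2 replicates. Some single-replicate peaks, and other neighbouring genes given for location, were named after their values were seen. Members and lists were chosen with earlier results of these data known. No test across genes was made. Scripts were tested on simulated data. Alternatives were q of at most 0.05, -log10 q or fold of at least 5, 50% overlap, summits within 100 bp, other windows and leaving out each replicate. Scripts ran in Python 3.11.15 with pandas 2.3.3, numpy 2.4.6 and scipy 1.17.1, and figures were drawn with matplotlib 3.10.9.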

Additional observations from a re-analysis of the deposited data

How the results depend on the processing

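Shared regions at the 10 Hippo genes numbered 7 at 5 genes, against 40.6% of all protein-coding genes. With only peaks of q at most 0.05 they numbered 3 at 3 genes (Tead3, Tead4 and Ankrd1), against 29.6%. They numbered 0 at 0 genes with a -log10 q of at least 5, against 7.30%, and with a fold of at least 5, against 7.02%. With summits within 100 bp there were 4 regions at 3 genes (Tead1, Tead4 and Lats2), against 33.8%. Within 100 kb of a listed start site, which 7 of the genes have, there were 4 regions at 3 genes, against 36.5%. Inside the gene span there were 4 regions at 4 genes, against 9.53%. Leaving out 1 replicate gave 9 to 13 regions at 5 to 9 genes, against 47.3% to 56.6%, since fewer lists have to share a region, with the highest values without replicate 2. Overlap of 50% gave 6 regions at 5 genes, against 35.6%, a window of 50 kb 6 at 5, against 27.8%, and a window of 10 kb 5 at 5, against 14.3%. Leaving out Ankrd1, chosen after the data were seen, gave 5 regions at 4 genes. For single chromosomes the share of all genes was 21.2% on chromosome 7 and 71.9% on chromosome 19. Few fragments per peak limit every count, and none of these shares was matched for gene length.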
